A study of Mus musculus with 6 samples.

Results

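The motile cilium axoneme genes described here were every row of a mouse lung tumor RNA table whose symbol is Foxj1 or begins with Dnah, Dnai, Cfap, Tekt, Rsph, Drc or Spag followed by a digit. The rule found 65 of the 17987 genes of the table, namely Foxj1, 16 Dnah, 25 Cfap, 4 Tekt, 7 Rsph, 3 Drc and 9 Spag genes, and no Dnai symbol. A gene was tested where 3 or more of the 6 libraries had a normalised read count of 10 or above, which kept 62 of the 65 genes and 16640 genes of the table. The genes left untested were Cfap99 (2.97 to 19.8 normalised reads in Usp24C1695A mice and 5.64 to 6.23 in Usp24WT mice), Rsph14 (5.94 to 9.90 and 5.64 to 17.3) and Dnah2os (3.96 to 9.90 and 4.70 to 8.64). No axoneme gene passed through the mice of a single genotype alone, and 56 reached 10 in all 6 libraries.

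RNA from lung tumors of 3 Usp24C1695A mice (M134, M145 and M164) and 3 Usp24WT mice (M1354, M1364 and M1370) was sequenced, with 1 library per mouse. All 6 mice carried Scgb1a1-rtTA and TetO-EgfrL858R on a C57BL/6J background and were given doxycycline at 0.5 g/l for 10 weeks. The Scgb1a1 promoter, active in airway club cells, drives the activator that switches on the mutant EGFR in the presence of doxycycline. Which cells expressed the oncogene in these tumors was not determined here. The Usp24C1695A mice carry in addition a homozygous exchange of the catalytic cysteine of the deubiquitinase USP24 for alanine in the germline, and the samples were titled KO although the genotype is this point mutant. The comparison asks which transcripts differ in EGFR-driven tumors when USP24 is catalytically inactive.

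A motile cilium beats because dynein motors slide neighbouring microtubule doublets of its axoneme against each other. Outer dynein arms set the power of the beat, inner arms its shape, and radial spokes, the central apparatus and the nexin-dynein regulatory complex coordinate the arms, while tektins and other microtubule inner proteins stiffen the doublets. In the lung these genes are expressed mainly by multiciliated cells of the airways, under the transcription factor FOXJ1 and the RFX family, and several of them are also used in the sperm tail.

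The libraries held 7167000 to 12516561 recovered reads in Usp24C1695A mice and 8950184 to 14650273 in Usp24WT mice. M164 stood apart from the rest. It had the fewest reads, mitochondrial genes took 17.2% of its reads against 1.74% to 3.10% in the other 5 libraries, and its Spearman correlations with them across genes were 0.905 to 0.932, against 0.961 to 0.985 among the other 5. Usp24 itself had 887, 1054 and 1125 normalised reads in Usp24C1695A mice, against 1194, 895 and 1225 in Usp24WT mice, and a transcript count cannot check a point mutation. The labels give no sex. Of the Y chromosome, Kdm5d, Uty and Eif2s3y were between 531 and 2419 in all 3 Usp24C1695A mice and M1354, and were at 0 in M1364 and M1370.

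Across the 62 tested axoneme genes no difference between the genotypes passed the test. The median log2 fold change, Usp24C1695A minus Usp24WT, was 0.30 and 52 of 62 (83.9%) were positive, whereas over all tested genes the median was -0.02 and 48.3% were positive. The limma-trend test called 0 axoneme genes at a Benjamini-Hochberg adjusted p under 0.05, where it called 0.0% of all genes. The edgeR quasi-likelihood test on recovered reads also called 0 axoneme genes (0.0% of all genes), as did DESeq2 (0.221% of all genes). At an unadjusted p under 0.05, limma found 0 axoneme genes higher and 0 lower, beside 2.61% of all genes higher and 2.93% lower. At that p edgeR and DESeq2 found 0 axoneme genes too, beside 1144 and 1367 of all 16640 tested genes. The lowest limma p of an axoneme gene was 0.0812, for Cfap77. In a bulk tumor sample, a change in the number of ciliated cells and a change in RNA per ciliated cell cannot be told apart.

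The positive median rested on M164. Without that mouse the median log2 fold change of the 62 genes was 0.04 and 35 were positive. Without M145, the Usp24C1695A mouse with the low values, the median was 0.60 and 56 were positive. In that fit 4 axoneme genes, namely Cfap65, Rsph1, Cfap46 and Dnah5, were higher at an unadjusted limma p under 0.05, beside 515 of all 16640 genes (3.09%). Spag11b was lower at that p, beside 533 of all genes, and no axoneme gene had an adjusted p under 0.716. Leaving out each of the 6 mice in turn gave medians from 0.04 to 0.60, and a fit with a weight for each library gave -0.14, with 20 genes positive.

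**Figure D1:**
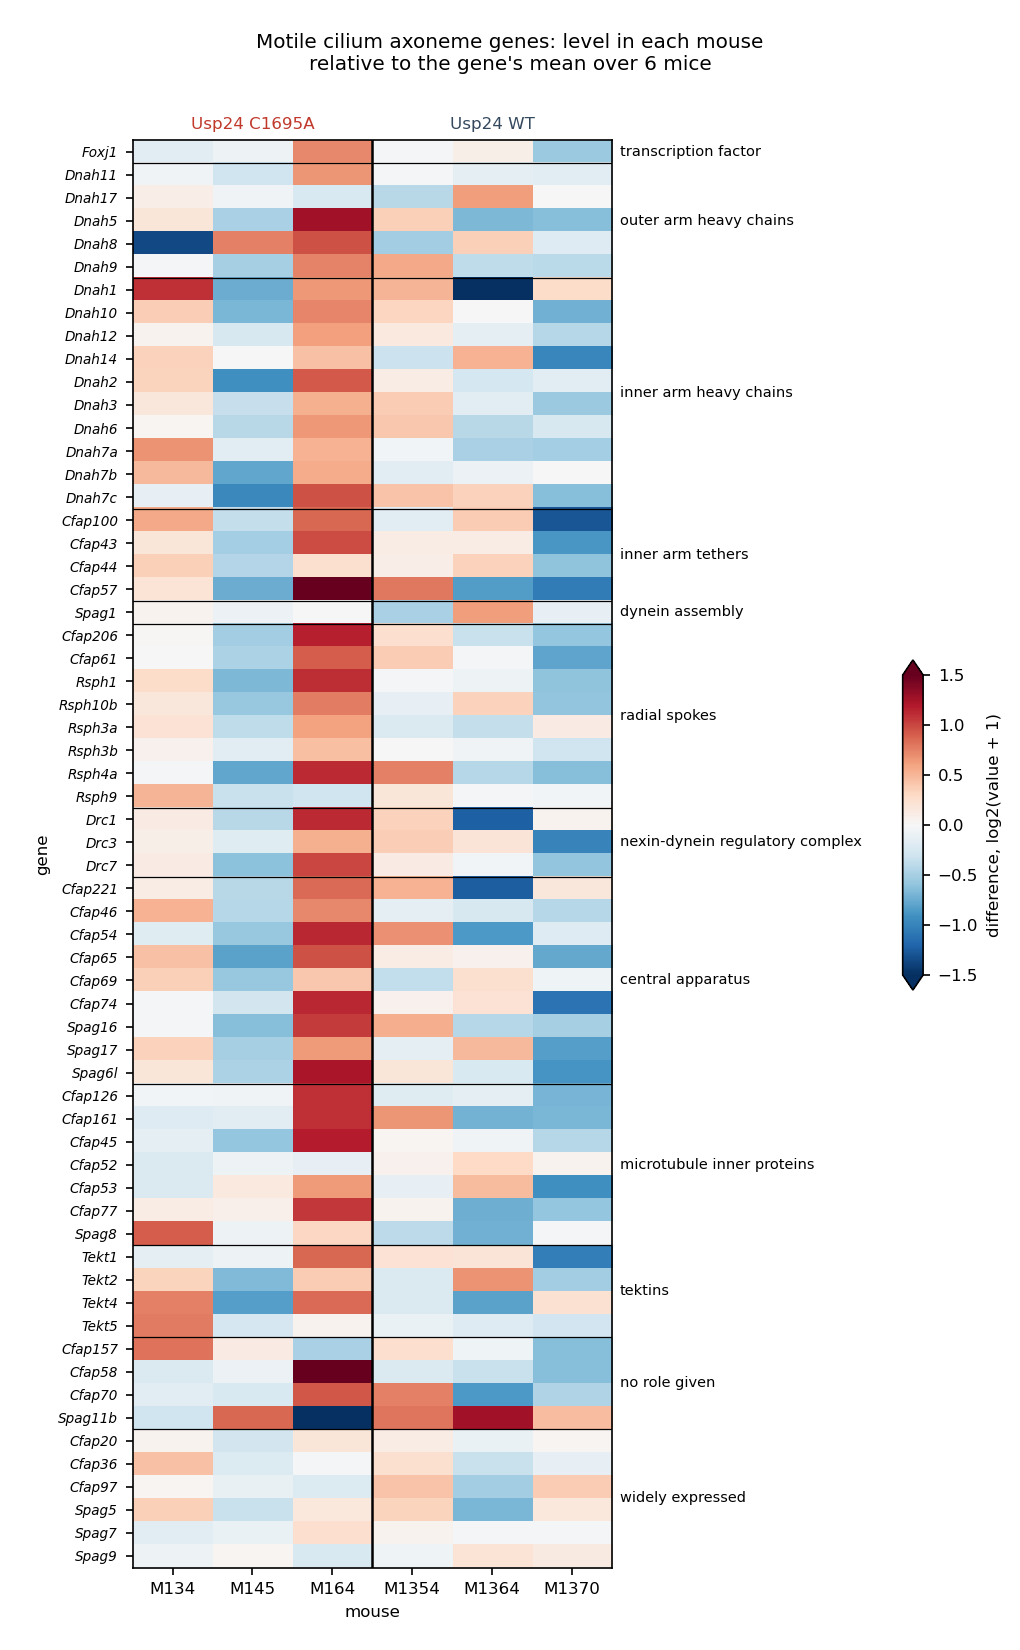
Heat map of the 62 tested axoneme genes (rows, ordered by role) in the 3 Usp24C1695A mice (left) and the 3 Usp24WT mice (right), as the difference on the log2(value + 1) scale from the gene's mean over the 6 mice, with colours saturated at 1.5. The column of M164 is mostly red and those of M145 and M1370 are mostly blue, so the genes vary by mouse within each genotype.

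The axoneme genes followed the mouse. M164 had the highest value of the 6 mice in 45 of 62 genes (72.6%), against 27.9% of all tested genes. After quantile normalization it was highest in 38, and with TMM factors in 45. In the deposited values M134 was highest in 9, M1364 in 7, M1354 in 1, and M145 and M1370 in 0. The lowest value was in M1370 for 25 genes (40.3%, against 16.5% of all tested genes), in M145 for 17 and in M1364 for 13. The median difference from a gene's mean over the 6 mice, on the log2 scale, was 0.11 in M134, -0.35 in M145 and 0.72 in M164, and 0.11 in M1354, -0.09 in M1364 and -0.47 in M1370. Within each genotype the mice were therefore spread further apart than the median difference between the genotypes.

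The pattern was also seen without M164. Of the 62 genes, 52 (83.9%) were higher in M134 than in M145, both Usp24C1695A, against 54.3% of all tested genes. Between the Usp24WT mice, 53 genes (85.5%) were higher in M1354 than in M1370, against 46.8% of all tested genes. The highest Usp24WT value was over 2-fold the lowest for 26 of the 62 axoneme genes, whereas 22.9% of all tested genes had such a range. Some axoneme genes rested on few reads, with 4 reads each of Dnah1 and Cfap221 in M1364. The part of low counts in these ranges was not tested. The genes are not independent points, since they share the 6 libraries.

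**Figure D2:**
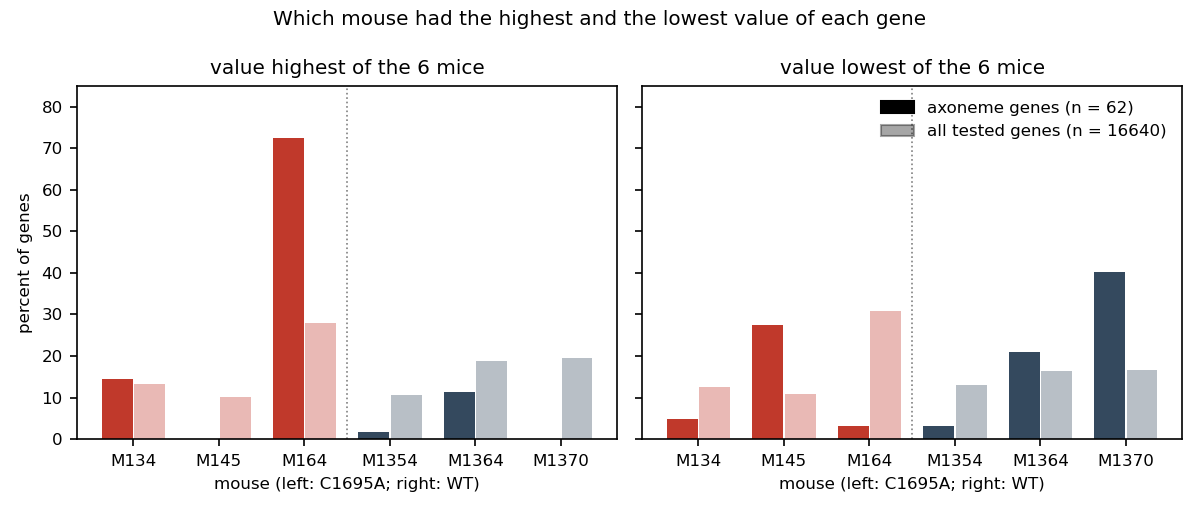
Percent of genes with their highest (left panel) and lowest (right panel) value in each mouse, for the 62 axoneme genes (solid bars) and all 16640 tested genes (pale bars), with Usp24C1695A mice left of the dotted line and Usp24WT mice right of it. M164 holds the highest value of 72.6% of axoneme genes and 27.9% of all genes, and M1370 the lowest value of 40.3% and 16.5%.

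Foxj1, the transcription factor that switches on the motile cilium program, had 104, 109.8 and 192 normalised reads in M134, M145 and M164, against 114, 124 and 79.0 in M1354, M1364 and M1370. M164 was the highest mouse and M1370 the lowest, and the other 4 mice of both genotypes lay close together. The log2 fold change was 0.32 ± 0.33 (SE, limma, adjusted p = 0.811) and 0.05 without M164. These were also the mice most often highest and lowest among the axoneme genes, while M145 lay in the middle.

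**Figure D3:**
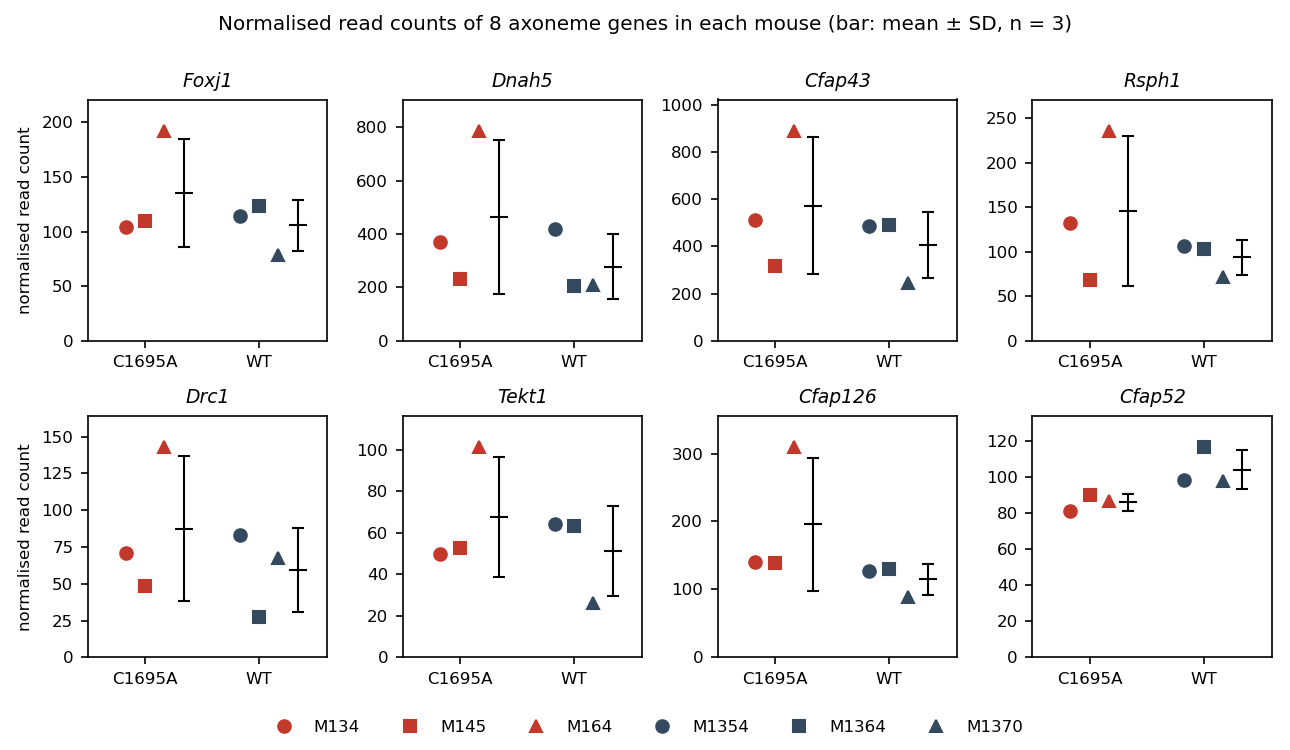
Normalised read counts of 8 axoneme genes in each mouse, Usp24C1695A on the left and Usp24WT on the right of each panel, with the mean ± SD of 3 mice beside the points. In 7 panels the point of M164 lies above all others, at 192 for Foxj1 and 786 for Dnah5, and in the panel of Cfap52 all 3 Usp24C1695A mice (81.1 to 90.0) lie below the Usp24WT mice (97.8 to 117).

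Many promoters of these genes held short sequences that the choice of genes did not use. RFX factors bind the X-box, an inverted repeat with a pair of similar arms. The arms searched for were GTTGCTA, its variant GTTGCCA and a further variant, which reads GTTACCA. RefSeq promoters of build GRCm38.p6, from 250 bases before to 50 bases after the start, were matched by symbol for 52 of the 65 axoneme genes and for 11435 tested genes, and each string was searched on both strands. GTTGCTA was found in 38.5% of axoneme promoters and 4.13% of all promoters, GTTGCCA in 19.2% and 4.69%, and GTTACCA in 9.62% and 2.34%. Any of these 3 arms was found in 29 of 52 axoneme promoters (55.8%), against 10.3% of all promoters. A fixed long form of the X-box, with free bases between its arms, was found in 0 of the 52 axoneme promoters and in 0.647% of all promoters. Its fixed letters differ from the commonest arm, so it could not match an inverted repeat of that arm. Such a repeat was not searched for, and the Dnah6 window below holds that arm followed by most of its reverse complement. The other long form counted, which covers less of the repeat, was found in 11.5% of axoneme promoters and 3.14% of all promoters. The forkhead string TGTTTAC, of the kind FOXJ1 can bind, was found in 5.77% and 3.23%, and the general promoter string CCAAT in 42.3% and 42.1%. These strings were picked for display from 13 that were counted, after the counts were seen, and Dnah7a, Dnah7b and Dnah7c are near copies of each other. A match is a description and not a site of binding.

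Promoter windows of 2 dynein heavy chain genes, 2 nexin-dynein genes and a tektin gene are shown as examples of the 29 promoters with an arm, to show the letters around it. They read 5′ to 3′ on the strand of the gene, the capitals mark the arm, and the coordinates are those of GRCm38.p6. The windows of Dnah6, Drc1, Drc3 and Tekt1 end just before the start, whereas the arm of Dnah5 lies 101 bases before it and its window stops short of the start. None of the 3 arms was found in the promoters searched for Dnah1, Dnah2, Dnah8, Dnah9, Dnah11, Dnah17, Tekt2 and Tekt4, and that of Tekt5, not shown, held GTTGCTA 228 bases before the start. The deposited values were mapped to mm39, and no coordinate was carried between the builds. The arm reads GTTGCTA in Dnah5 and Dnah6 and GTTGCCA in Tekt1, and is the reverse complement of GTTGCCA in Drc1 and of GTTGCTA in Drc3.
Dnah5 (chr15:28203628-28203694, plus strand): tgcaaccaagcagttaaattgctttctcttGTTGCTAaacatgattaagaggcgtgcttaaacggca
Dnah6 (chr6:73221632-73221697, minus strand): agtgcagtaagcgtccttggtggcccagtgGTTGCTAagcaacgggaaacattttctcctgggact
Drc1 (chr5:30281351-30281392, plus strand): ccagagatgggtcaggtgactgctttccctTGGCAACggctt
Drc3 (chr11:60353325-60353379, plus strand): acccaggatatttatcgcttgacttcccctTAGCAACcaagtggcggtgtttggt
Tekt1 (chr11:72361883-72361927, minus strand): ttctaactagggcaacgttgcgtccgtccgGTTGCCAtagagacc

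The outer arm heavy chains, the ATPases of the outer dynein arm, gave 4 positive log2 fold changes of 5 tested (median 0.21, and -0.07 without M164). Dnah5, the heavy chain present along the whole airway cilium, had 371, 233 and 786 normalised reads in M134, M145 and M164, against 419, 206 and 211 in M1354, M1364 and M1370. M164 was about as far above M134 as M1354 was above the other Usp24WT mice on the log2 scale, and the genotypes overlapped. Its log2 fold change was 0.63 ± 0.46 (SE, limma, adjusted p = 0.752), and 0.16 without M164. Dnah9, the partner heavy chain of the distal cilium, had 80.1, 57.4 and 137, against 121, 61.9 and 61.1. The highest mouse of each genotype stood apart from its other mice, and the log2 fold change was 0.15 ± 0.42 (SE, limma, adjusted p = 0.930), or -0.18 without M164. Dnah11, the partner in the proximal cilium, ranged from 51.4 to 101 in Usp24C1695A mice and from 56.4 to 62.3 in Usp24WT mice. Dnah8 and Dnah17, outer arm heavy chains best known from sperm, ranged from 11.2 to 59.4 and from 29.7 to 37.5 in Usp24C1695A mice, against 20.8 to 38.9 and 26.0 to 54.7 in Usp24WT mice. The highest Usp24WT mouse was M1364 for both, whereas it was M1354 for Dnah5, Dnah9 and Dnah11.

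The 10 inner arm heavy chains had 9 positive log2 fold changes, with a median of 0.26, and of 0.00 without M164, and 7 were highest in M164. Dnah6 had 242, 177 and 372 normalised reads in M134, M145 and M164, against 315, 177 and 200.2 in M1354, M1364 and M1370. Apart from M164 the Usp24C1695A mice lay within the range of the Usp24WT mice, with a log2 fold change of 0.17 ± 0.33 (SE, limma, adjusted p = 0.896), and -0.11 without M164. Dnah7a had 39.5, 21.8 and 35.6, against 23.9, 17.3 and 16.9. Here M134 was the highest mouse, only M145 overlapped the Usp24WT mice, and the log2 fold change of 0.68 ± 0.43 (SE, limma, adjusted p = 0.738) was 0.59 without M164. Its near copies Dnah7b and Dnah7c ranged from 31.7 to 81.2 and from 23.7 to 93.1 in Usp24C1695A mice, against 48.8 to 54.5 and 30.1 to 64.4 in Usp24WT mice, and reads can be divided among the 3 copies in a way that the sources do not state.

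Dnah10 and Dnah2, the heavy chains of the double-headed inner arm, ranged from 45.5 to 123 and from 19.8 to 73.3 in Usp24C1695A mice, against 44.2 to 92.4 and 31.7 to 41.6 in Usp24WT mice. Dnah3 and Dnah12, heavy chains of single-headed inner arms, ranged from 107 to 198 and from 123 to 222, against 92.1 to 178 and 107 to 160.0. M145 was the lowest and M164 the highest Usp24C1695A mouse for each of these 4 genes. Dnah1 and Dnah14 rested on few reads, with 12.9 to 48.7 and 15.8 to 21.8 in Usp24C1695A mice, against 5.76 to 32.2 and 7.52 to 23.0 in Usp24WT mice. Per kilobase of exon, Dnah14 had the lowest mean level of the tested axoneme genes, 1.04 normalised reads per kb over the 6 mice, and Dnah5 had the highest mean of the heavy chains, at 23.7 per kb.

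The genes grouped here under the broad label of inner arm tethers gave 4 positive log2 fold changes of 4, with a median of 0.57, and of 0.08 without M164. Cfap43 had 513, 318 and 889 normalised reads in M134, M145 and M164, against 487, 489 and 245 in M1354, M1364 and M1370. M134, M1354 and M1364 were nearly equal, M164 was above them and M145 and M1370 below. The log2 fold change was 0.44 ± 0.41 (SE, limma, adjusted p = 0.796), and 0.06 without M164. Its partner Cfap44 ranged from 101 to 176 in Usp24C1695A mice and from 90.2 to 176 in Usp24WT mice. Cfap57 had 133 in M164 and 24.7 and 48.7 in the other Usp24C1695A mice, against 19.7 to 73.8 in Usp24WT mice, and Cfap100 ranged from 45.5 to 107 against 23.5 to 76.3. Spag1, which acts in the cytoplasm when dynein arms are preassembled, had 123, 111 and 119 in M134, M145 and M164, against 84.1, 183 and 108 in M1354, M1364 and M1370, so that its Usp24C1695A mice were level and its Usp24WT mice were 2.17-fold apart.

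The radial spokes link the doublets to the central apparatus, and of the 8 tested spoke genes 7 were positive in log2 fold change (median of the 8 was 0.27, or 0.01 without M164). Rsph1, a protein of the spoke head, had 133, 68.3 and 236 normalised reads in M134, M145 and M164, against 107, 104 and 71.4 in M1354, M1364 and M1370. The Usp24C1695A mice held both the highest and the lowest value, with a log2 fold change of 0.47 ± 0.44 (SE, limma, adjusted p = 0.796), and 0.04 without M164. Rsph4a, also of the spoke head, had 139.9, 82.1 and 309, against 241, 105 and 91.2. M164 and M1354 were the highest mice, and the log2 fold change of 0.21 ± 0.53 (SE, limma, adjusted p = 0.924) was -0.30 without M164.

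Rsph9, the third spoke head protein named here, went with neither: it had 66.9, 36.6 and 37.6 normalised reads, against 53.0, 46.1 and 45.1. M134 was the highest mouse and M164 was near the lowest, and the log2 fold change was -0.08 ± 0.37 (SE, limma, adjusted p = 0.958), and 0.05 without M164. The head gene Rsph10b ranged from 87.1 to 222 in Usp24C1695A mice and from 85.5 to 166 in Usp24WT mice. The stalk genes Rsph3a and Rsph3b, which are near copies, ranged from 128 to 253 and from 169 to 257 in Usp24C1695A mice, against 129 to 181 and 153 to 188 in Usp24WT mice. Cfap206 and Cfap61, which sit at the base of spokes, had 295 and 63.4 in M164 and at most 133 and 33.5 in the other Usp24C1695A mice, against 87.4 to 157 and 18.8 to 43.6 in Usp24WT mice.

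In the nexin-dynein regulatory complex, the link between neighbouring doublets, all 3 tested genes had a positive log2 fold change and their highest value in M164. Drc1, a scaffold subunit, had 71.0, 48.5 and 143 normalised reads in M134, M145 and M164, against 83.1, 27.3 and 67.7 in M1354, M1364 and M1370. M164 was the highest mouse, and the lowest was M1364, which held 19 reads of Drc1. The log2 fold change was 0.55 ± 0.53 (SE, limma, adjusted p = 0.802), and 0.13 without M164. Drc3 ranged from 89.0 to 147 in Usp24C1695A mice and from 49.8 to 131 in Usp24WT mice, and Drc7 from 25.7 to 81.2 against 26.3 to 43.6.

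The central apparatus had 9 tested genes, all 9 positive in log2 fold change, with a median of 0.36, and of 0.03 without M164, and all 9 highest in M164. Spag6l, a central apparatus protein required for ciliary beating in mice, had 95.3, 60.4 and 198 normalised reads in M134, M145 and M164, against 95.6, 72.0 and 45.1 in M1354, M1364 and M1370. M134 and M1354 were equal, and M164 stood above them. The log2 fold change was 0.62 ± 0.48 (SE, limma, adjusted p = 0.762), and 0.16 without M164. Cfap46, of the C1 microtubule, had 81.1, 41.6 and 93.1, against 50.9, 47.5 and 41.4. M134 and M164 lay above all Usp24WT mice and M145 among them, with a log2 fold change of 0.54 ± 0.38 (SE, limma, adjusted p = 0.751), and 0.32 without M164.

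Cfap65, needed for the central apparatus of sperm tails and cilia, had 235, 98.9 and 337, against 188, 181 and 102. Its lowest mice were M145 and M1370, and the log2 fold change of 0.39 ± 0.46 (SE, limma, adjusted p = 0.836) was 0.01 without M164. Cfap69, at 287 to 566 in Usp24C1695A mice and 330.3 to 504 in Usp24WT mice, had the highest mean level per kilobase of exon of the role, at 55.7 normalised reads per kb. Cfap74, Cfap54 and Cfap221 ranged from 61.3 to 164.3, from 58.4 to 192 and from 10.9 to 27.7 in Usp24C1695A mice, against 33.8 to 86.4, 47.5 to 141 and 5.76 to 21.8 in Usp24WT mice. Spag16 and Spag17, which bind each other in mice, ranged from 64.3 to 209.9 and from 70.2 to 154 in Usp24C1695A mice, against 71.4 to 148 and 55.5 to 139.6 in Usp24WT mice.

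Genes whose mice did not overlap between the genotypes were few: every Usp24C1695A mouse was above every Usp24WT mouse for 3 of 62 axoneme genes (5.07% of all tested genes), and below for 1 (6.03%). The 3 were Cfap126, Cfap77 and Cfap58, and the 1 was Cfap52. Neither share exceeded that of all genes. Cfap126, a microtubule inner protein that helps to place basal bodies in mouse airway cells, had 139.9, 138.5 and 309 normalised reads in M134, M145 and M164, against 127, 129.5 and 88.4 in M1354, M1364 and M1370. The lowest Usp24C1695A mouse exceeded the highest Usp24WT mouse by less than the Usp24WT mice differed among themselves. The log2 fold change was 0.68 ± 0.36 (SE, limma, adjusted p = 0.738), and 0.30 without M164.

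Cfap77, another microtubule inner protein, had 44.6, 43.5 and 87.1, against 42.6, 24.5 and 27.3. M134, M145 and M1354 were nearly equal, and the log2 fold change was 0.84 ± 0.42 (SE, limma, adjusted p = 0.738), and 0.515 without M164. Cfap58, to which no role is given here, had 40.55, 44.5 and 135, against 40.51, 37.4 and 30.1. M134 and M1354 were all but equal, so its separation rests on less than 1 normalised read, and the log2 fold change was 0.79 ± 0.49 (SE, limma, adjusted p = 0.738), and 0.24 without M164. Cfap52, a microtubule inner protein, had 81.1, 90.0 and 87.1, against 98.7, 117 and 97.8. It was the only axoneme gene with all 3 Usp24C1695A mice low, M164 was not set apart, and the log2 fold change of -0.27 ± 0.26 (SE, limma, adjusted p = 0.796) was -0.28 without M164.

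Of the 7 microtubule inner protein genes, 6 had a positive log2 fold change and 5 were highest in M164. Cfap45, a partner of Cfap52 in the doublet, had 190.1 normalised reads in M164 and 55.4 to 75.0 in the other Usp24C1695A mice, against 62.04 to 85.2 in Usp24WT mice, so this pair of partners did not follow the same mouse order. Cfap53, linked to left-right asymmetry in human and mouse, ranged from 116 to 209.9 against 70.5 to 187, Cfap161 from 37.5 to 93.1 against 25.9 to 68.6, and Spag8 from 11.9 to 24.3 against 7.20 to 12.2. Per kilobase of exon, Cfap126 had 87.6 normalised reads per kb over the 6 mice, above every other axoneme gene outside the widely expressed ones, with the spoke head gene Rsph1 next at 87.3 per kb. These levels do not differ beyond the spread between mice.

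Tektins form filaments inside the doublets, and 4 of 4 tested had a positive log2 fold change (median 0.40, and 0.16 without M164). Tekt1 had 49.7, 52.4 and 101 normalised reads in M134, M145 and M164, against 64.4, 63.3 and 26.3 in M1354, M1364 and M1370. M164 was high and M1370 low, and the remaining mice of both genotypes were alike, with a log2 fold change of 0.42 ± 0.47 (SE, limma, adjusted p = 0.826), and 0.10 without M164. Tekt4 had 31.4, 9.89 and 33.7, against 15.6, 10.1 and 21.6. M145 was the lowest of all 6 mice, and the log2 fold change was 0.52 ± 0.59 (SE, limma, adjusted p = 0.831), with 0.23 without M164 and 1.06 without M145. Tekt5 was highest in M134, at 65.9, and 31.7 to 39.6 in the other Usp24C1695A mice, against 31.0 to 35.3 in Usp24WT mice. Tekt2 ranged from 18.8 to 39.6 against 20.7 to 48.9, and 20.8% of its exon bases are shared with a gene on the opposite strand, whose reads cannot be told apart if the counting ignored strand.

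**Figure D4:**
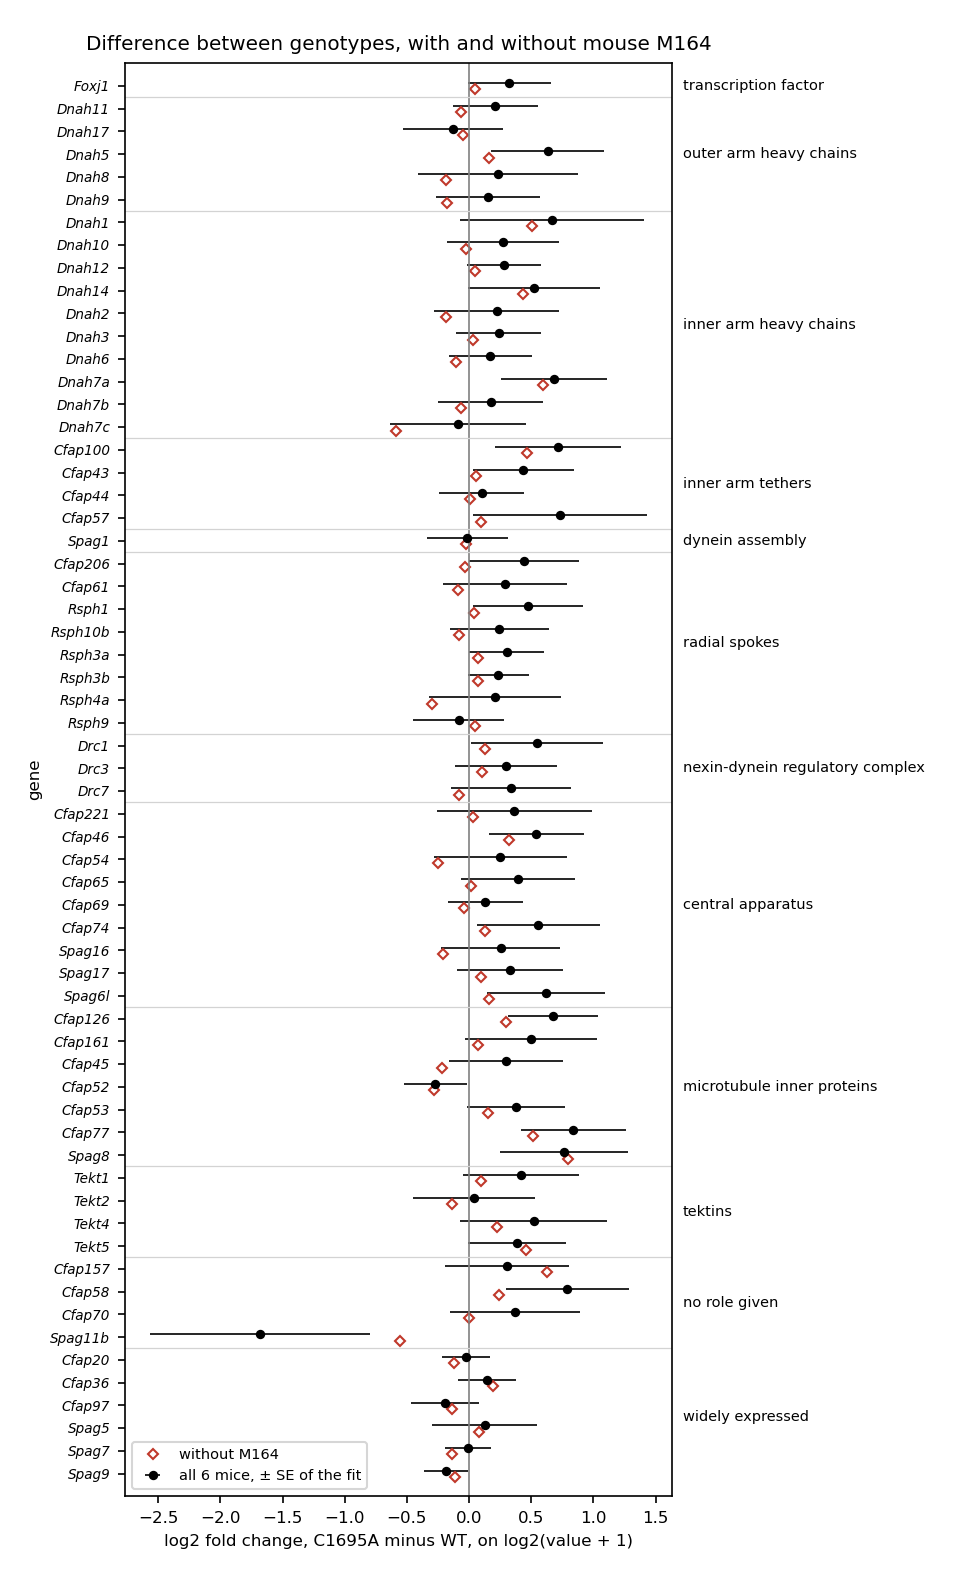
Log2 fold change, Usp24C1695A minus Usp24WT, of each tested axoneme gene on the log2(value + 1) scale, ordered by role, with all 6 mice (black points, bars ± SE of the limma fit) and without M164 (open red diamonds). With all mice 52 of 62 points lie right of 0, and without M164 the diamonds lie on both sides of it, 35 of 62 to the right.

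The symbol rule also took in genes that are not parts of an axoneme. Spag11b, an epididymal gene of the defensin type, had 33.5, 76.2 and 3.96 normalised reads in M134, M145 and M164, against 72.7, 101 and 57.3 in M1354, M1364 and M1370. M164 held 2 reads of it, and M145 was above M1354 and M1370. Its log2 fold change of -1.68 ± 0.89 (SE, limma, adjusted p = 0.738) was -0.56 without M164. Cfap157 and Cfap70 were given no role here, which does not place them outside the axoneme. They ranged from 15.8 to 40.5 and from 38.6 to 87.1 in Usp24C1695A mice, against 14.1 to 27.0 and 24.5 to 76.9 in Usp24WT mice.

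The 6 widely expressed members, which act outside motile cilia as well, did not follow the mouse order of the rest: their median log2 fold change was -0.02, and their median difference from the mean was 0.07 in M164. Spag9, a scaffold of kinase signalling, had 4102, 4432 and 3696 normalised reads in M134, M145 and M164, against 4157, 4990 and 4768 in M1354, M1364 and M1370. M164 was the lowest mouse, and the log2 fold change was -0.19 ± 0.18 (SE, limma, adjusted p = 0.7996), and -0.12 without M164. Cfap36 had 1190, 766 and 869, against 1039, 698 and 808. Each genotype had its higher and lower mice, and the log2 fold change was 0.14 ± 0.23 (SE, limma, adjusted p = 0.875). Cfap20 ranged from 475 to 653 against 535 to 620.1, Cfap97 from 467 to 551 against 376 to 729, Spag7 from 417 to 552 against 456 to 484, and the mitotic spindle gene Spag5 from 27.7 to 45.6 against 21.6 to 44.7. Without these 6 genes the median of the remaining 56 was 0.31, 50 were positive and 43 were highest in M164.

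No Dnai symbol was found because the table carries older symbols for the dynein intermediate chains, and these genes, looked up after the rule had been applied, are no members. Dnaic1 and Dnaic2, the outer arm intermediate chains, had 115 and 117 normalised reads in M164 and at most 49.7 and 65.9 in the other Usp24C1695A mice, against 30.1 to 58.2 and 38.5 to 56.1 in Usp24WT mice. Wdr63, an inner arm intermediate chain, had 86.2, 46.5 and 135, against 83.1, 41.7 and 51.7. These 3 genes were highest in M164. The other two, Wdr78 and Casc1, were highest in M1354, with 217, 191 and 247.5 for Wdr78, against 297, 154 and 188, and 56.8, 62.3 and 73.3 for Casc1, against 73.8, 56.1 and 58.3.

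The lists of other genes of the multiciliated cell were not tested against the axoneme genes. The 23 ciliated cell markers had 22 positive log2 fold changes, with a median of 0.40, and of 0.25 without M164, and 18 were highest in M164. None was called, and 3 of 23, Mlf1, Lrriq1 and Ccdc113, were higher at an unadjusted limma p under 0.05, beside 2.61% of all tested genes. Every Usp24C1695A mouse was above every Usp24WT mouse for 4 of 23 (5.07% of all tested genes), and below for 1 (6.03%). Lrriq1 had 64.9, 70.2 and 129 normalised reads in M134, M145 and M164, against 37.4, 61.9 and 19.7 in M1354, M1364 and M1370, and is among the 4. Ccdc113, a protein of motile cilia, is so too, with 97.3, 71.2 and 147, against 64.4, 56.1 and 49.8. The marker without overlap in the opposite direction was Tubb4b, the tubulin of the axoneme that other cells use as well, with 1625, 1757 and 1532 against 2294, 1929 and 2092.

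The genes of the multiciliogenesis program, not all of which start it, gave 8 positive log2 fold changes of 12 tested. Their median was 0.24, and 0.08 without M164, with 0 at an unadjusted limma p under 0.05. Myb, an early regulator of the program, had 108, 105 and 222 normalised reads, against 70.6, 105 and 74.3, and Ccdc78, a deuterosome protein, had 87.2, 41.6 and 123, against 47.8, 46.1 and 27.3. Mcidas, the factor named for multiciliate differentiation, was looked up and had no row under that symbol in the table. The dynein arm assembly and docking genes gave 12 positive of 16 (median 0.34, and -0.07 without M164) and 9 were highest in M164. The gene of that list with the lowest limma p was Daw1, a dynein assembly factor, with 33.5, 16.8 and 39.6, against 15.6, 15.8 and 17.9, and Dnal1, a dynein light chain, had 322, 278 and 327, against 418, 302 and 418. Intraflagellar transport genes, which build primary as well as motile cilia, gave 17 positive of 30 with a median of 0.06, and 11 were highest in M164. The lowest limma p values of that list were 0.0695 for Dync2li1, a light intermediate chain of the transport dynein, and 0.102 for Ttc30a1, and the 2 genes went opposite ways. Dync2li1 had 319, 254 and 200, against 391, 285 and 451, with a log2 fold change of -0.54. Ttc30a1 had 62.9, 76.2 and 79.2, against 49.9, 37.4 and 58.3, with a log2 fold change of 0.59.

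**Figure D5:**
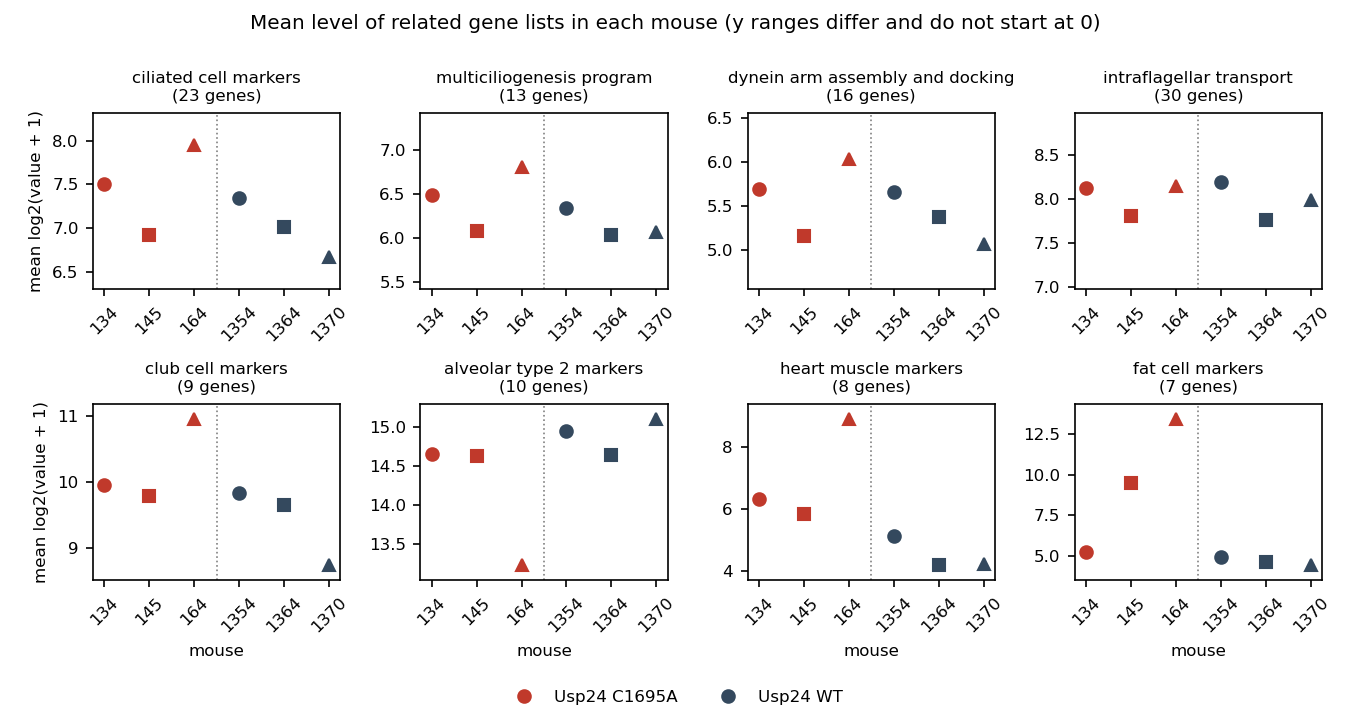
Mean log2(value + 1) of 8 gene lists in each mouse, Usp24C1695A in red left of the dotted line and Usp24WT in blue right of it, with a y range of its own in each panel. Ciliated cell markers were at 7.50, 6.93 and 7.95 in M134, M145 and M164, against 7.35, 7.02 and 6.67 in M1354, M1364 and M1370, and in M164 the club cell, heart muscle and fat cell markers were high and the alveolar type 2 markers low.

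Markers of some other cell types also had their highest or lowest sum in M164. Club cell markers, of which 9 of 9 were in the table, summed to 49600 to 99000 normalised reads in Usp24C1695A mice and 25710 to 51360 in Usp24WT mice. Scgb1a1, the club cell secretoglobin, had 35500, 39950 and 77430 in M134, M145 and M164, against 21920, 37780 and 19270 in M1354, M1364 and M1370. Its highest mouse was M164, as for most axoneme genes, and its lowest was M1370. M145, with low axoneme values, was above M134 and all Usp24WT mice for Scgb1a1. Alveolar type 2 markers (10 of 10 in the table) summed to 571500, 570400 and 197300, against 642100, 631600 and 728700, so type 2 transcripts were abundant in every library and lowest in M164. None of the club or type 2 markers was at 0 in any library.

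Tissue outside the airway also stood out in M164. Fat cell markers (7 of 8 in the table) summed to 9338, 21140 and 250300, against 7968, 11910 and 10820, with Adipoq at 0 in M1364 and M1370 and Plin1 at 0 in M1364. Heart muscle markers (8 of 9) summed to 1077, 628 and 6140, against 408, 387 and 379, with Nppa at 0 in M1364 and M1370 and Myl7 at 0 in M1364. Male germ cell markers (3 of 10 in the table) summed to 1615, 1224 and 349, against 1281, 1661 and 1259. Nearly all of that sum was Prm1, lowest in M164 at 325. Prm1 was at 1642 in M1364 and 1248 in M1370, where the Y-linked Kdm5d, Uty and Eif2s3y were at 0. The sum is therefore not read as male germ cells. Acr had 2.03, 15.8 and 15.8, against 1.04, 14.4 and 4.70, and Zpbp 8.11, 10.9 and 7.92, against 3.12, 4.32 and 5.64. Basal cell markers (4 of 6 in the table, 1 tested) were low in every library and summed to 45.6, 122.7 and 154.4, against 15.6, 28.8 and 16.9. Trp63, the tested one, had 24.3, 13.9 and 122.8, against 8.31, 15.8 and 8.46. The basal cell keratins Krt5 and Krt14 were looked up and had no row under those symbols in the table. B cell markers (8 of 8, none at 0) summed to 230.1, 9533 and 3647, against 300.2, 286 and 299, and were highest in M145, the Usp24C1695A mouse with the low axoneme values. The part of these cell types, of the mitochondrial share and of read depth in the axoneme values was not tested. Among the 5 mice other than M164, most axoneme genes were higher in M134 than in M145 and in M1354 than in M1370, as counted above.

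The design also ties genotype to the Y-linked genes, which were present in all 3 Usp24C1695A mice and in M1354 alone of the Usp24WT mice. With their mean log2 level as a covariate, chosen after the data had been seen, the median log2 fold change of the axoneme genes was 0.00 and 32 of 62 were positive. That fit compares the Usp24C1695A mice mainly with M1354, whose axoneme values were the highest of the Usp24WT mice on the median.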

How the data were processed

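Lung tumor RNA of 6 mice was sequenced with 150-bp paired reads from 3 μg of total RNA. The authors deposited normalised read counts, a signal obtained by dividing each library's gene counts by its size factor. Reads had been aligned with HISAT2 2.1.0, with mm39 as the build, per the processing notes of the submitters. The read counter, strand setting, annotation and gene filter are not given in the sources used here. All values of each library (100%) came out as whole multiples of 1 step, with a tolerance of 1e-06, which gave back whole reads. For M145 the step is so near 1 that this rests on the residuals.

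Genes reaching 10 in 3 or more libraries were tested with limma-trend 3.58.1 in R 4.3.3 on log2(value + 1), which draws fold changes of low genes toward 0, with Benjamini-Hochberg adjustment over all 16640 tested genes and a threshold of 0.05. The count tests on recovered reads, edgeR 4.0.16 and DESeq2 1.42.0, called 0 and 36 genes of the whole table, and DESeq2 left 386 genes without an adjusted p. The fit was tested on simulated data. Exact permutation of 3 against 3 mice cannot go below p = 0.1 and was not used. The members, roles and lists were chosen with earlier results of these data known. Named were Foxj1, called or non-overlapping members, all tested dynein heavy chain, spoke, nexin-dynein and tektin genes, and in other roles those with the lowest p or highest mean; fold changes are given for 22 of them. Exon lengths come from GENCODE M21. Exons of 27 members share bases with another gene, 25 of them with one on the opposite strand, over 20% only for Tekt2 and Dnah2os. Plots used matplotlib 3.10.9 and numpy 2.4.6, and tables pandas 2.3.3, under Python 3.11.15.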

Additional observations from a re-analysis of the deposited data

How the results depend on the processing

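None of the 62 axoneme genes was called by limma, edgeR or DESeq2, or under any of the alternatives run. The median log2 fold change of 0.30 stayed positive under the other pseudocounts, filters, scalings and count tests, and without the widely expressed genes, and ranged from 0.04 to 0.60 when each mouse was left out. It was -0.14 with array weights, which let the fit weigh each library. The number of positive axoneme genes, 52, was 33 of 41 tested under the stricter filter (at least 50), 20 with array weights and 32 with the Y-linked covariate, and ranged from 35 to 56 when each mouse was left out. The count at an unadjusted limma p under 0.05 was 0 in the reported fit, beside 922 of all 16640 tested genes. It was 1 with array weights, beside 4229 of all genes. When each mouse was left out it was 0 to 5, beside 239 to 2021 of all genes. The 5 came without M145, where 1048 of all genes were under 0.05. Genes that did not overlap between the genotypes numbered 2 after quantile normalization, against 4, and the share of all genes after that normalization is not given here. The sign changed for 36 axoneme genes with array weights and for 24 with the Y-linked covariate. Among the 22 genes given a fold change, those that turned negative with array weights were Dnah5 -0.17, Dnah9 -0.47, Dnah6 -0.38, Rsph1 -0.14, Rsph4a -0.69, Drc1 -0.35, Tekt4 -0.33, Cfap43 -0.033, Cfap65 -0.25, Spag6l -0.006 and Cfap36 -0.14. With the Y-linked covariate they were Dnah5 -0.029, Dnah9 -0.48, Dnah6 -0.32, Rsph4a -0.65, Drc1 -0.067, Tekt1 -0.001 and Cfap36 -0.17. Rsph9 was 0.007 with edgeR, against -0.08. When each mouse was left out, Dnah9 ranged from -0.18 to 0.47, Dnah6 from -0.11 to 0.43, Rsph4a from -0.30 to 0.65, Rsph9 from -0.36 to 0.066 and Cfap36 from -0.037 to 0.30. The cause was not tested. No paired analysis was possible because the mouse numbers of the genotypes share no value. An adjusted p over the threshold does not show that the genotypes were alike.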
